A study of Mus musculus with 18 samples.

Results

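The complement components, receptors and regulators described here are 32 listed genes, found by gene symbol among the probe sets that the platform annotation gives to 1 gene. Of these, 29 had such a probe set and all 29 were above the limit for dim signals, out of 14694 genes tested. They were sorted by their known source into 17 tested of 19 listed genes made by hepatocytes, 5 of 5 made by macrophages, 2 of 2 anaphylatoxin receptors of myeloid cells and 5 of 6 other genes, mostly membrane regulators. C3 and Cfd were not analysed here, and the probe set of C4b is shared with another gene, so C4b has no value. C5ar1 passed the limit on 7 of the 18 arrays and the other 28 genes on all 18.

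Complement is a cascade of plasma proteins that tags and lyses targets. It starts on bound C1q (classical pathway), on mannose-binding lectins and ficolins (lectin pathway) or by slow turnover of C3 (alternative pathway), and it ends in the terminal pathway, where C5 to C9 form the membrane attack complex. Hepatocytes make most of the plasma components, whereas C1q, properdin and, in mice, ficolin A come largely from macrophages. In laboratory mice the activity of the terminal pathway in serum is known to be higher in males than in females.

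Total RNA of whole liver was measured on 18 Affymetrix mouse expression arrays, 3 in each of 6 groups. The groups were AIM-KO mice (AIM-/-) and WT mice (AIM+/+), each on normal chow (0 weeks of high-fat diet, HFD), on HFD for 12 weeks or on HFD for 20 weeks, all on a C57BL/6 background. AIM is the apoptosis inhibitor of macrophage, a protein secreted by macrophages and encoded by Cd5l. Neither age nor sex is stated, which means that age and weeks of diet cannot be told apart, and the labels name biological replicates without saying whether each is a separate animal. The p-values measure only the spread between these arrays.

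The median intensity was 15 to 21.1 per array, the ratio of 3′ to 5′ actin signal, a sign of RNA quality, was 2.25 to 4.22, arrays of a group correlated at 0.955 to 0.98, and Alb, the marker of hepatocytes, read 6138.8 to 11103.8 on every array. Cd5l read 4 to 23.5 on the 9 AIM-KO arrays and 702.6 to 1926.8 on the 9 WT arrays, and whether its probe set lies within the deleted part is not stated. Xist, which is transcribed from the inactive X chromosome of female cells, exceeded 500 on 4 arrays, which were all 3 of AIM-KO at 20 weeks and WT replicate 2 at 20 weeks. These are called Xist-high below. Y-linked genes were dim on them and bright on the other 14 arrays. The highest Xist-high value of Eif2s3y was 7.3, while its lowest value elsewhere was 498.4. For Kdm5d these limits were 9.9 and 71.8, and for Uty they were 5.8 and 82.3. The Xist-high arrays thus had a female pattern of sex-linked transcripts. The other arrays, among them all chow arrays, had a male one. As no other AIM-KO array is Xist-high, 20 weeks of HFD and high Xist cannot be told apart in AIM-KO. Values of members at 20 weeks are given also with high Xist as a term (the Xist term) or without that WT array where this ends a call or moves it. That term rests on the 1 WT array. Marker lists and complement genes outside the set are given without the term.

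The promoters of 5 members are shown, because the results below turn on these genes. They moved far, or stand side by side in the genome and moved together. C1qa, which stands beside C1qc and rose with it, had no promoter entry, and C3ar1, which rose more than C1qc, is not shown. C8b and C8a are neighbours on chromosome 4, as are C1qb and C1qc, with no other coding gene between either pair. Each sequence is the 250 bases before the gene's start in RefSeq on GRCm38.p6, given 5′ to 3′ on the gene's own strand, namely C8b at chr4:104766067-104766316 (+), C8a at chr4:104876399-104876648 (-), C6 at chr15:4726960-4727209 (+), C1qb at chr4:136886201-136886450 (-) and C1qc at chr4:136892915-136893164 (-). Capitals mark matches on either strand to GTTAAT (a core of sites for HNF1, a hepatocyte factor), ATCAAT (a core for HNF6), TTCNNNGAA (a STAT site) and GAGGAA (a core for PU.1, a macrophage factor).
C8b: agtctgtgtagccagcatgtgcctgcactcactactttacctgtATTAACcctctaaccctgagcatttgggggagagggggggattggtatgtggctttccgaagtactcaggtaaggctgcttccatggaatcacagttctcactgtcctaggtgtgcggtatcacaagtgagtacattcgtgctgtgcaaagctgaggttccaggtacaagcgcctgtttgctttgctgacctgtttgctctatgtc
C8a: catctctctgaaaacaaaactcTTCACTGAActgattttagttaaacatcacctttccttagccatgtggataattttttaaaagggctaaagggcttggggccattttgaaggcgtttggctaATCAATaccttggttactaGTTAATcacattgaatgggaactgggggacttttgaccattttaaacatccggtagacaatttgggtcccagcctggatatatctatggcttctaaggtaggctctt
C6: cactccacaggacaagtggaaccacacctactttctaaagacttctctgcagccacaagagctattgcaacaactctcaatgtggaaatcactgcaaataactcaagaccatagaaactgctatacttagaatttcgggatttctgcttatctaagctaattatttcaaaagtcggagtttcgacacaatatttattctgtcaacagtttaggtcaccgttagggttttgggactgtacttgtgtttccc
C1qb: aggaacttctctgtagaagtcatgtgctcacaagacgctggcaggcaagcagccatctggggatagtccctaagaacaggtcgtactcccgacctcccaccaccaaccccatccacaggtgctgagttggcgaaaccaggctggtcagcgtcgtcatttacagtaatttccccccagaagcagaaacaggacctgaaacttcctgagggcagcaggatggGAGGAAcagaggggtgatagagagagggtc
C1qc: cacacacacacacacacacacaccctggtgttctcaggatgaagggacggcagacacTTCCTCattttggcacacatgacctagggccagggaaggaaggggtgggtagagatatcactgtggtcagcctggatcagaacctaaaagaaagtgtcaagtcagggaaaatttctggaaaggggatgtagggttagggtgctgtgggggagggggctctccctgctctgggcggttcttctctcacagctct

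Among 27025 promoters of the same length, GTTAAT was in 6.52%, ATCAAT in 6.97%, TTCNNNGAA in 7.18% and GAGGAA in 23.1%. C8a held TTCNNNGAA, ATCAAT and GTTAAT, C8b held GTTAAT, and none of the 4 was in the C6 window. C1qb and C1qc held GAGGAA. Of the 22 tested members with a promoter entry, GTTAAT was in 6 of 12 made by hepatocytes and 1 of 4 made by macrophages, and GAGGAA was in 0 of 12 made by hepatocytes, 3 of 4 made by macrophages and 1 of 4 other genes. ATCAAT was in 1 and TTCNNNGAA in 2 of the 12 made by hepatocytes, and neither was in another class. The motifs were chosen with the expression results known, and a match is a description of the letters and not a binding site.

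On the HFD the hepatocyte-made members that were called were lower and the macrophage-made members that were called were higher. Changes are differences of log2(intensity + 3.3) ± SE from limma, HFD minus chow or AIM-KO minus WT, with 3 arrays per group, and genes with a Benjamini-Hochberg adjusted p under 0.05 over all 14694 tested are referred to as called. Of the 29 members, 16 were called in AIM-KO at 12 weeks, 6 higher and 10 lower, against 18.1% of all genes tested. At 20 weeks 10 were called in AIM-KO, 2 higher and 8 lower, against 6.96% of all genes, but with the Xist term 0 were higher and 2 lower, against 1.34%. In WT livers 7 were called at 12 weeks, 2 higher and 5 lower, against 5.14% of all genes, and 16 at 20 weeks, 5 higher and 11 lower, against 14.5%. With both genotypes averaged, 19 were called at 12 weeks, 6 higher and 13 lower, against 22.5% of all genes. The comparisons within a genotype share their chow arrays. The actin 3′ to 5′ ratio was 2.53 to 2.75 on WT chow, 2.69, 3.79 and 2.52 in WT at 12 weeks and 3.64, 2.54 and 4.22 in WT at 20 weeks. The part of RNA quality in the WT calls was not tested.

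The hepatocyte-made members called lower numbered 10 of 17 in AIM-KO at 12 weeks (6.78% of all genes were called lower), 8 in AIM-KO at 20 weeks (2.67%), 5 in WT at 12 weeks (1.63%), 11 in WT at 20 weeks (5.77%) and 13 in the 12-week average (8.89%). Their median change was -0.42, -0.26, -0.35, -0.55 and -0.34 in the same comparisons, where the median over all genes lay between -0.0081 and 0.045. Quantile normalization gave medians of -0.19, -0.15, -0.25, -0.45 and -0.23 with 5, 7, 5, 9 and 7 called lower, and it turned Mbl2 to called higher in the last 4. The shares of all genes called lower and their medians under quantile normalization are not given here, and those above belong to the main fit. All called macrophage-made members were higher, 4 of 5 in AIM-KO at 12 weeks (11.4% of all genes were called higher), 1 in AIM-KO at 20 weeks (4.29%), 1 in WT at 12 weeks (3.52%), 3 in WT at 20 weeks (8.72%) and 3 in the 12-week average (13.6%). Their median change was 0.98, 0.43, 0.35, 0.9 and 0.67. With the Xist term the AIM-KO comparison at 20 weeks kept 2 hepatocyte-made members called lower, with a median of -0.43, and 0 macrophage-made members called higher, with a median of 0.4. In bulk liver, fewer cells of a type and less RNA per cell cannot be told apart.

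The 12 tested hepatocyte markers outside the set were summed for comparison. Their summed intensity was 68963.6 to 75276.9 on chow, 49913.6 to 55436.1 at 12 weeks and 59638.5 to 67978.6 at 20 weeks in AIM-KO. In WT it was 65741.3 to 76824.3 on chow, 54777.2 to 65716.8 at 12 weeks and 60087.4 to 69049.3 at 20 weeks. Of these markers 6 and 0 of 12 were called lower in AIM-KO at 12 and 20 weeks, and 1 and 3 in WT. The shares of all genes called lower were 6.78%, 2.67%, 1.63% and 5.77% in the same order. The markers had medians of -0.36, -0.17, -0.26 and -0.1 in that order. At an unadjusted p under 0.05 limma gave 2 markers in AIM-KO at 20 weeks, against 20.3% of all genes. The sums at 20 weeks overlapped chow in WT and not in AIM-KO. No marker was at 0, and the part of hepatocyte RNA content in the complement changes was not tested.

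**Figure D1:**
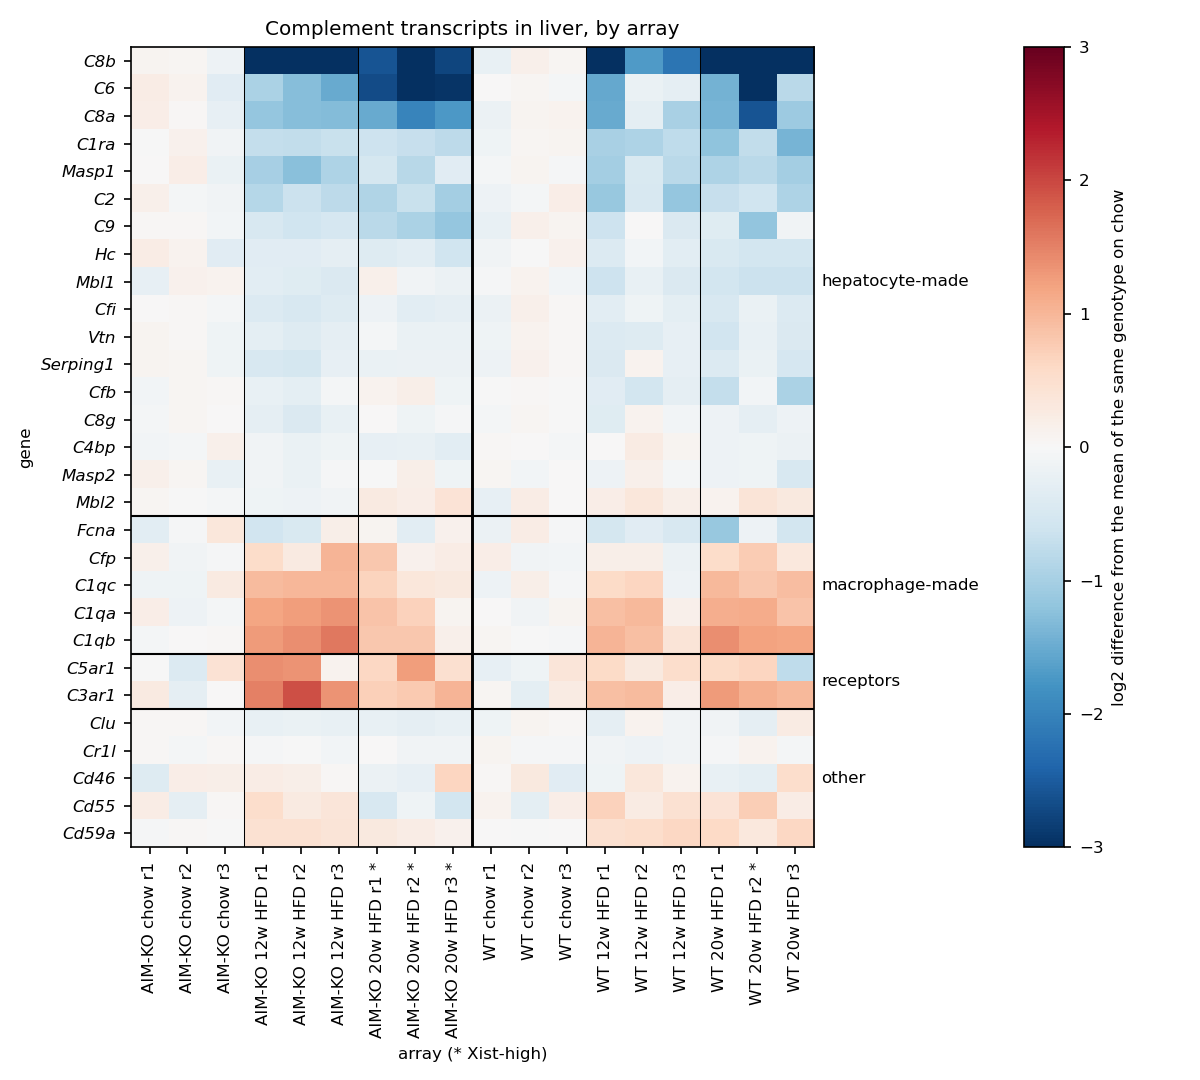
Log2 difference of each of the 29 tested members (rows, ordered by class) on each of the 18 arrays (columns, AIM-KO left of WT, diets from chow to 20 weeks) from the mean of the same genotype on chow. The colour scale ends at -3 and 3, which C8b and C6 exceed on some arrays, and asterisks mark the 4 Xist-high arrays. Most hepatocyte-made members are blue and C1qa, C1qb, C1qc and C3ar1 red on the HFD arrays.

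The member with the largest fall within each genotype and time belonged to the terminal pathway, C6 in AIM-KO at 20 weeks and C8b in the other 3 comparisons. C8b encodes the beta chain of C8, which binds the C5b-C7 complex and recruits the rest of C8. In AIM-KO livers C8b read 1649.8, 1627.5 and 1386.7 on chow, 89.9, 96.4 and 117.9 at 12 weeks, and 252.9, 186.1 and 227.1 at 20 weeks. In WT livers it read 1188.1, 1542 and 1455.6 on chow, 103.4, 424.3 and 303.5 at 12 weeks, and 154, 160.8 and 144.5 at 20 weeks. All 12 HFD arrays lay below all 6 chow arrays, and WT replicate 1 at 12 weeks read as low as the AIM-KO arrays of that time.

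At 12 weeks C8b fell by 3.9 ± 0.31 in AIM-KO (fold 0.067, adjusted p = 4.7e-07), and at 20 weeks by 2.8 ± 0.31 (fold 0.144, adjusted p = 2.1e-05). In WT it fell by 2.53 ± 0.31 at 12 weeks (fold 0.173, adjusted p = 9.5e-05) and by 3.15 ± 0.31 at 20 weeks (fold 0.112, adjusted p = 3e-06). These calls held in every refit without 1 array of the groups compared. Beside the Xist term C8b changed by -2.9 ± 0.57 in AIM-KO at 20 weeks (adjusted p = 0.021) and by -3.19 ± 0.36 in WT at 20 weeks (adjusted p = 1.5e-05).

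C8a, the neighbouring gene, encodes the alpha chain of C8, which inserts into the target membrane. In AIM-KO livers C8a read 5457.4, 4860.6 and 3980.2 on chow, 2101.8, 1936.1 and 1901.9 at 12 weeks, and 1661.6, 1198.5 and 1423.1 at 20 weeks. In WT livers it read 4351.4, 5167.3 and 5245 on chow, 1728.8, 4015.9 and 2490.5 at 12 weeks, and 1873.9, 805.4 and 2300 at 20 weeks. The HFD arrays lay below the chow arrays in each genotype, and WT was spread widely at both times, with replicate 1 lowest at 12 weeks and the Xist-high replicate 2 lowest at 20 weeks. C8a fell by 1.26 ± 0.3 in AIM-KO at 12 weeks (adjusted p = 0.0062) and by 1.74 ± 0.3 at 20 weeks (adjusted p = 0.0013). In WT it changed by -0.92 ± 0.3 at 12 weeks (adjusted p = 0.081) and fell by 1.69 ± 0.3 after 20 weeks (adjusted p = 0.00078). With the Xist term the call in AIM-KO at 20 weeks ended (-0.37 ± 0.38, adjusted p = 0.71), while WT at 20 weeks without replicate 2 gave -1.24 ± 0.24 (adjusted p = 0.0016).

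C6 encodes a component that joins C5b to begin the membrane attack complex. In AIM-KO livers C6 read 739.9, 675 and 499.1 on chow, 326, 258.8 and 220.3 at 12 weeks, and 95.3, 46.5 and 79.5 at 20 weeks. In WT livers it read 709.7, 733.3 and 685.9 on chow, 241.2, 619.1 and 589.1 at 12 weeks, and 265, 71.3 and 402.1 at 20 weeks. All HFD arrays lay below the chow arrays of their genotype, the 4 Xist-high arrays lay below all others, and WT replicate 1 was the low one at 12 weeks. C6 fell by 3.09 ± 0.45 in AIM-KO at 20 weeks (fold 0.117, adjusted p = 0.00028) and by 1.83 ± 0.45 in WT at 20 weeks (fold 0.282, adjusted p = 0.0095). At 12 weeks it changed by -1.24 ± 0.45 in AIM-KO (adjusted p = 0.063) and -0.67 ± 0.45 in WT (adjusted p = 0.46), and it was called in the average of both (-0.95 ± 0.32, adjusted p = 0.036), where 4 of 12 refits without 1 array kept the call. With the Xist term the change in AIM-KO at 20 weeks was -0.95 ± 0.54 (adjusted p = 0.45), and without WT replicate 2 the change in WT was -1.11 ± 0.34 (adjusted p = 0.03).

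C9, whose product polymerises into the pore, read 3209.4, 2889.3 and 2502.8 in AIM-KO at 20 weeks against 5737.6, 5774.3 and 5319 on chow. In WT it read 4535.9, 2553.9 and 5373 at 20 weeks against 4994.5, 6401.6 and 6093.6 on chow. The AIM-KO groups did not overlap, and in WT replicate 3 was within the chow range while the Xist-high replicate 2 lay far below it. C9 fell by 0.97 ± 0.2 in AIM-KO at 20 weeks (fold 0.509, adjusted p = 0.0057) and changed by -0.55 ± 0.2 in WT (adjusted p = 0.077). The Xist term left an AIM-KO change of -0.024 ± 0.25 (adjusted p = 0.98), and without replicate 2 the WT change was -0.23 ± 0.15 (adjusted p = 0.35).

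Hc, the gene of C5, read 3173.5, 3347.9 and 2724.8 in AIM-KO at 20 weeks against 4861.2, 4436.3 and 3294.6 on chow, and 2969.4, 2771.9 and 2784.6 in WT at 20 weeks against 3771, 4021 and 4434.1 on chow. The WT groups were separate and the AIM-KO groups overlapped. Hc fell by 0.43 ± 0.13 in AIM-KO at 20 weeks (adjusted p = 0.044, kept in 1 of 6 refits without 1 array) and by 0.52 ± 0.13 in WT at 20 weeks (adjusted p = 0.0091). In AIM-KO, Hc was not called with the Xist term (-0.38 ± 0.23, adjusted p = 0.47). C8g, the gamma chain of C8, read 3590.7, 3173.1 and 3690.9 in AIM-KO at 12 weeks, against 4152.4, 4472.7 and 4311.3 on chow, without overlap. It fell by 0.31 ± 0.1 in AIM-KO at 12 weeks (adjusted p = 0.045, kept in 0 of 6 refits without 1 array) and was not called within the other groups. The 3 chains of C8 differed in the size of their change, with -3.9 for C8b, -1.26 for C8a and -0.31 for C8g in AIM-KO at 12 weeks.

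**Figure D2:**
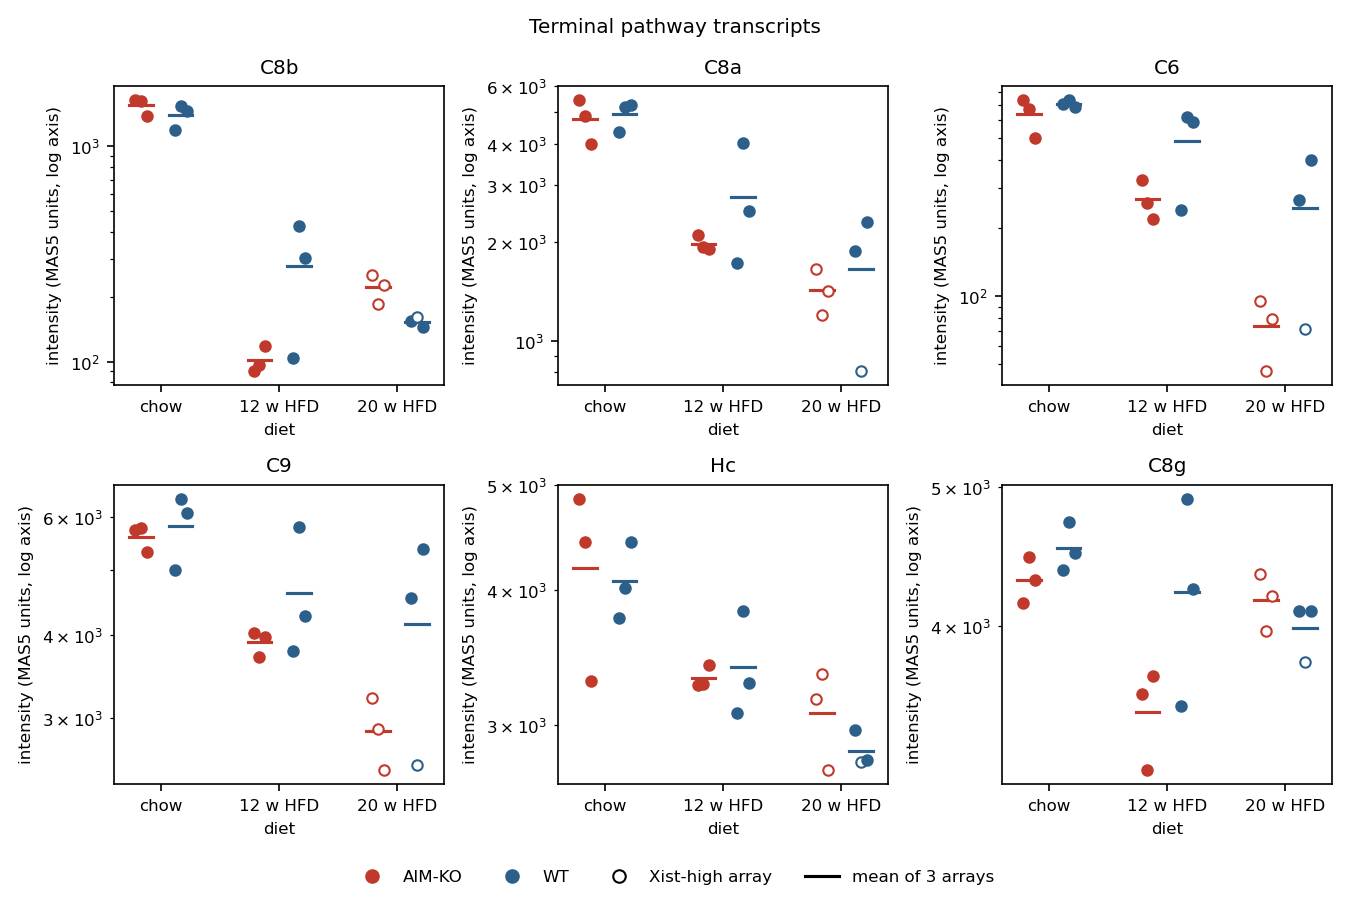
Intensity (MAS5 units, log axis) of 6 terminal pathway genes on each array, by diet from chow to 20 weeks, with AIM-KO in red left of WT in blue. Points are arrays, open points are Xist-high arrays and bars are means of 3 arrays. The open points are lowest for C6, C8a and C9, but not for C8b.

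Genes that liver expresses with a male bias were lower on the same arrays. Relative to WT chow, the median of 6 such genes (among them Hsd3b5, Elovl3 and Cyp4a12a) was -3.99, -4.58 and -3.41 in AIM-KO after 12 weeks and -5.94, -7.22 and -5.88 after 20. In WT it was -3.98, -0.75 and -0.61 at 12 weeks and -4.72, -7.86 and -3.69 at 20 weeks. WT replicate 1 at 12 weeks and WT replicate 2 at 20 weeks, the arrays where C6 and C8a were lowest in their groups, were also lowest here. C8b was also lowest on WT replicate 1 at 12 weeks, but at 20 weeks WT replicate 2 had the highest C8b of its group and AIM-KO livers had more C8b at 20 than at 12 weeks. Summed over the list the intensity was 666.9 to 909.9 in AIM-KO at 20 weeks and 479.8 to 3954.5 in WT at 20 weeks, against 10902 to 16541.3 in AIM-KO on chow and 16959 to 17922.2 in WT on chow. Of the 6 genes, 4 in AIM-KO and 2 in WT were called lower at 12 weeks, and 6 in each genotype at 20 weeks. Of all genes 6.78% and 1.63% were called lower at 12 weeks in AIM-KO and WT, and 2.67% and 5.77% at 20 weeks. Of 6 female-biased genes 4, 2, 5 and 4 were called higher, in AIM-KO and WT at 12 weeks and then at 20 weeks. The shares of all genes called higher were 11.4%, 3.52%, 4.29% and 8.72%. The part of sex-biased transcription in the falls of C8b, C8a and C6 was not tested.

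Among the proteases of the classical and lectin pathways, C1ra, C2 and the brightest probe set of Masp1 fell in all 4 comparisons within a genotype. C1ra encodes a protease of the C1 complex. It read 694.7, 686.3 and 717.3 at 12 weeks in AIM-KO, against 1137.1, 1243.4 and 1052.5 on chow, and 666.6, 692.2 and 777 at 12 weeks in WT, against 1202.8, 1374 and 1388.3 on chow. At 20 weeks it read 663.3 to 740.3 in AIM-KO and 502.2 to 786.9 in WT. All HFD arrays of both genotypes lay below all chow arrays. C1ra fell by 0.7 ± 0.13 (adjusted p = 0.00094) in AIM-KO and by 0.89 ± 0.13 (adjusted p = 4e-04) in WT at 12 weeks, and by 0.7 ± 0.13 (adjusted p = 0.0025) in AIM-KO and 1.12 ± 0.13 (adjusted p = 1.7e-05) in WT at 20 weeks. With the Xist term the change in AIM-KO at 20 weeks was -1.26 ± 0.17 (adjusted p = 0.0013), so C1ra and C8b were the 2 members called there beside that term, against 1.34% of all genes.

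C2, the precursor of the protease of the classical and lectin C3 convertase, read 359, 415 and 377.5 at 12 weeks in AIM-KO, against 721.8, 627.8 and 602.9 on chow. The WT arrays read 290.8, 454.4 and 284.9 at 12 weeks, against 572.4, 617.4 and 738.8 on chow. No HFD array reached a chow array at 12 weeks, and the same held at 20 weeks, where C2 read 317.5 to 409 in AIM-KO and 332.6 to 424 in WT. Its change was -0.76, -0.86, -0.92 and -0.74 in AIM-KO at 12 and 20 weeks and WT at 12 and 20 weeks, each ± 0.16, with adjusted p of 0.0029, 0.0027, 0.002 and 0.0043. The AIM-KO value at 20 weeks became -1.09 ± 0.29 (adjusted p = 0.069) with the Xist term. Refits without 1 array kept every call of C1ra and C2, and the other probe sets of C2 gave the same calls.

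The products of Masp1 include a protease that starts the lectin pathway, and the gene is known to give more than 1 product. Its brightest probe set, 1419677_at, read 1266.6, 1436.7 and 1100 on chow, 629.9, 523.9 and 660 after 12 weeks and 870.2, 705.9 and 990.1 after 20 weeks in AIM-KO. The WT arrays read 1215.2, 1351.4 and 1237.9 on chow, 628.2, 919.4 and 721.7 at 12 weeks and 665.3, 719.7 and 623.9 at 20 weeks. The HFD arrays lay below the chow arrays in each genotype. This probe set fell by 1.06 ± 0.15 (adjusted p = 7.7e-05) and 0.57 ± 0.15 (adjusted p = 0.023, kept in 2 of 6 refits without 1 array) in AIM-KO at 12 and 20 weeks, and by 0.76 ± 0.15 (adjusted p = 0.0043) and 0.92 ± 0.15 (adjusted p = 0.00035) in WT. With the Xist term the AIM-KO call at 20 weeks ended (-0.73 ± 0.26, adjusted p = 0.19).

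None of the other 3 probe sets of Masp1 above the limit was called lower (their adjusted p is over all probe sets kept). Probe set 1438602_s_at read 267, 334.6 and 375.5 in WT at 20 weeks, against 195.3, 230.5 and 229.8 on chow, and rose by 0.56 ± 0.13 (adjusted p = 0.0093). Probe set 1425985_s_at read 219.6, 234.9 and 227.5 in WT at 20 weeks, against 153.3, 195.5 and 138.5 on chow, and rose by 0.49 ± 0.13 (adjusted p = 0.015). In AIM-KO at 12 weeks they changed by 0.29 ± 0.13 (adjusted p = 0.16) and 0.14 ± 0.13 (adjusted p = 0.54). Which product of Masp1 each probe set measures is not stated by the sources used here, so the fall belongs to 1 probe set and not to the gene as a whole.

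**Figure D3:**
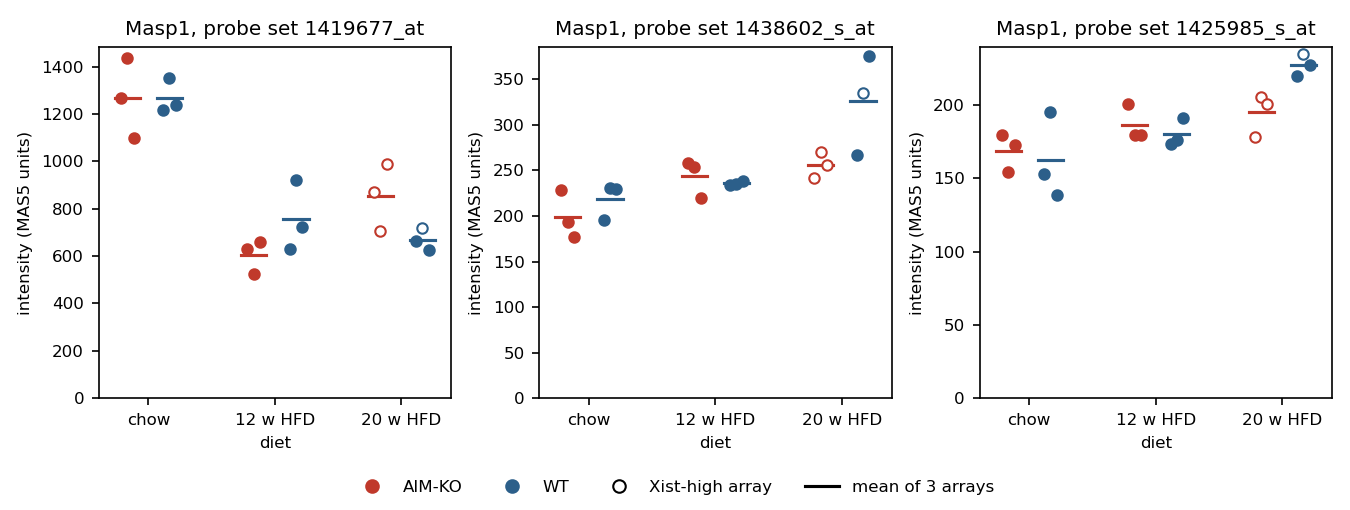
Intensity (MAS5 units) of 3 Masp1 probe sets on each array, by diet from chow to 20 weeks, AIM-KO in red left of WT in blue, with open points for Xist-high arrays and bars for means of 3 arrays. Probe set 1419677_at is lower on all HFD arrays, whereas 1438602_s_at and 1425985_s_at have their highest mean in WT at 20 weeks.

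Of the mannose-binding lectins, Mbl1 was called and Mbl2 was not. Mbl1, a mannose-binding lectin of mouse plasma, read 1288.4, 1220.5 and 1222.2 in WT at 20 weeks against 1850.6, 2057.5 and 1800.1 on chow. The groups did not overlap, and Mbl1 fell by 0.61 ± 0.12 (adjusted p = 0.0018). It also fell at 12 weeks in AIM-KO (-0.37 ± 0.12, adjusted p = 0.034) and WT (-0.43 ± 0.12, adjusted p = 0.041), calls that held in 1 of 6 refits without 1 array each, and it changed by -0.036 ± 0.12 in AIM-KO at 20 weeks (adjusted p = 0.92). Mbl2, the other such lectin, read 5754.5, 5459.2 and 6313.5 in AIM-KO at 20 weeks, against 4998.9, 4763.2 and 4580.7 on chow, and all 3 arrays lay above chow. It was not called, with changes of -0.13, 0.29, 0.23 and 0.26 (each ± 0.11) in AIM-KO at 12 and 20 weeks and WT at 12 and 20 weeks. Masp2, the protease that cleaves C4 and C2, was not called with its brightest probe set, which lay between -0.25 and 0.0053. Its other probe set, 1420524_a_at, read 268.8, 270.3 and 313.5 in AIM-KO at 12 weeks against 362.5, 424.7 and 451.9 on chow, and 249, 375.7 and 228 in WT at 20 weeks against 435.7, 484.8 and 418.5 on chow, without overlap. That probe set fell by 0.53 ± 0.15 in AIM-KO at 12 weeks (adjusted p = 0.023) and by 0.68 ± 0.15 in WT at 20 weeks (adjusted p = 0.0065), so the probe sets of Masp2 disagree.

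Among the regulators made by hepatocytes Cfi, Vtn and Serping1 were called lower and C4bp was not called. In AIM-KO at 12 weeks the 12 hepatocyte markers outside the set had a median change of -0.36. The highest intensity of an array there was 10002.9 to 10685.1, against 12270 to 16640 on chow. The part of either in the AIM-KO falls at 12 weeks was not tested. Cfi, the protease that cuts C3b and C4b, read 4228.8, 4044.5 and 4270.6 in AIM-KO at 12 weeks, against 5675.5, 5731.7 and 5397 on chow, and 3894.3, 4775.8 and 4100.7 in WT at 20 weeks, against 4805.3, 6071.9 and 5559 on chow. The HFD arrays were below chow in both. It fell by 0.42 ± 0.099 in AIM-KO at 12 weeks (adjusted p = 0.0058) and by 0.36 ± 0.099 in WT at 20 weeks (adjusted p = 0.019, kept in 2 of 6 refits without 1 array). Vtn, vitronectin, which restrains the membrane attack complex, read 5333.4, 4995.1 and 5372.9 in AIM-KO at 12 weeks, against 6871.2, 6674.4 and 5975.7 on chow, again with no overlap. It fell by 0.31 ± 0.1 in AIM-KO at 12 weeks (adjusted p = 0.036) and by 0.41 ± 0.1 in WT at 20 weeks (adjusted p = 0.0088). Its dimmer probe set, 1455098_a_at, fell further, by 0.6 ± 0.14 (adjusted p = 0.0075) and 0.9 ± 0.14 (adjusted p = 0.00045) in the same comparisons, and also by 0.68 ± 0.14 in WT at 12 weeks (adjusted p = 0.01). Serping1, the C1 inhibitor, read 3253.8, 3135.6 and 3820.2 in AIM-KO at 12 weeks, against 4789.1, 4730.9 and 4118.5 on chow, without overlap. It fell by 0.42 ± 0.13 in AIM-KO at 12 weeks (adjusted p = 0.025), and C4bp, which binds C4b, lay between -0.26 and 0.11. These AIM-KO calls held in 6, 1 and 2 of 6 refits without 1 array for Cfi, Vtn and Serping1. Without the Xist-high WT array, Serping1 was also called in WT at 20 weeks (-0.45 ± 0.13, adjusted p = 0.027).

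Cfb, factor B, the protease of the alternative C3 convertase, read 1337, 2072 and 1141.2 in WT at 20 weeks against 2161.6, 2245.1 and 2175.8 on chow. In AIM-KO at 20 weeks it read 2217.4, 2321.3 and 1889.6 against 1937.8, 2136.2 and 2134.5 on chow (0.046 ± 0.16, adjusted p = 0.92, and -0.7 ± 0.19, adjusted p = 0.071, with the Xist term). The Xist-high WT array, with an actin 3′ to 5′ ratio of 2.54, was close to chow, and the other 2, with ratios of 3.64 and 4.22, were well below it. The part of RNA quality in this difference was not tested. Cfb fell by 0.58 ± 0.16 in WT at 20 weeks (adjusted p = 0.017). The call held in 3 of 6 refits without 1 array, and without the Xist-high array the WT change was -0.83 ± 0.12 (adjusted p = 0.00011).

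**Figure D4:**
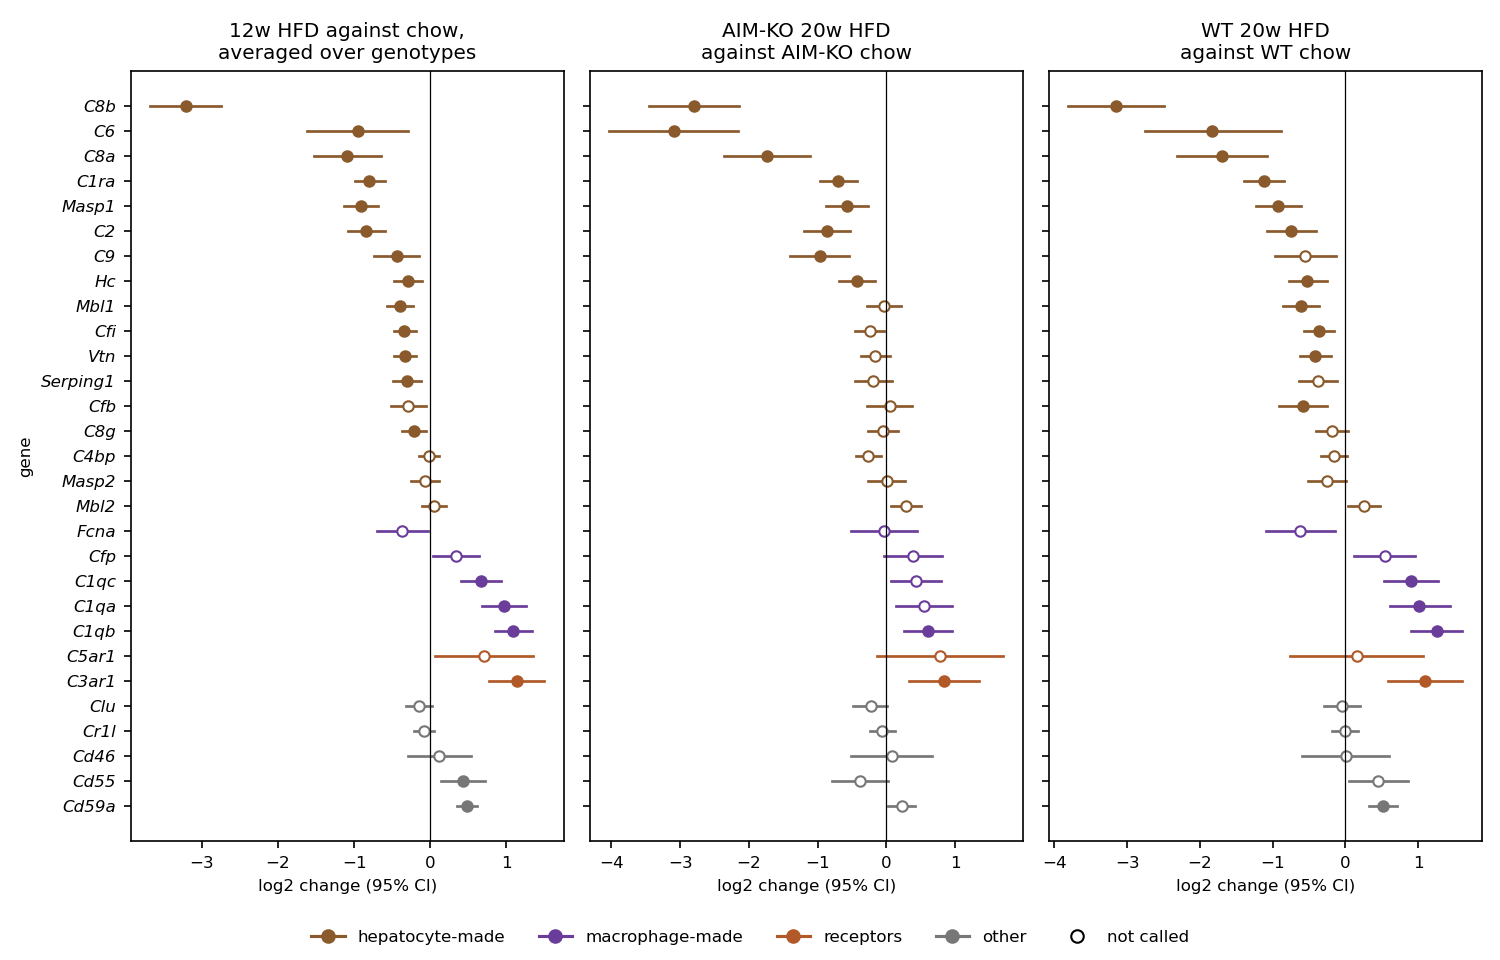
Log2 change (points) with 95% confidence interval (lines) of the 29 tested members at 12 weeks of HFD averaged over genotypes and at 20 weeks in AIM-KO and in WT, each against chow. Filled points are called at an adjusted p under 0.05. C8b, C6 and C8a lie farthest to the left and C3ar1 and C1qb farthest to the right among called members.

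The macrophage-made C1q chains rose. C1qa, C1qb and C1qc encode the 3 chains of C1q, the recognition molecule of the classical pathway, and lie next to each other on chromosome 4. In AIM-KO livers C1qb read 261.1, 276.4 and 278.7 on chow, 667.3, 716.8 and 819.6 at 12 weeks, and 480.4, 481.6 and 304.4 at 20 weeks. In WT livers it read 243.4, 231.5 and 230.3 on chow, 479.3, 444.1 and 308.8 at 12 weeks, and 618.3, 545.8 and 541.2 at 20 weeks. All HFD arrays lay above the chow arrays, and AIM-KO peaked at 12 weeks while WT was highest at 20 weeks.

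C1qb rose by 1.42 ± 0.17 (fold 2.67, adjusted p = 1.5e-05) in AIM-KO at 12 weeks and by 0.6 ± 0.17 (fold 1.51, adjusted p = 0.036) at 20 weeks. In WT it rose by 0.77 ± 0.17 (fold 1.71, adjusted p = 0.0092) at 12 weeks and by 1.26 ± 0.17 (fold 2.39, adjusted p = 6e-05) at 20 weeks. The AIM-KO call at 20 weeks held in 1 of 6 refits without 1 array and not with the Xist term (0.68 ± 0.3, adjusted p = 0.31). The WT call at 12 weeks ended without WT replicate 1 at 12 weeks (adjusted p = 0.069), the highest of that group. Both dimmer probe sets of C1qb were also called higher at 12 weeks in AIM-KO (0.96 and 1.4, each ± 0.17) and WT (0.7 and 0.82, each ± 0.17) and at 20 weeks in WT (1.43 and 1.05, each ± 0.17).

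C1qa behaved alike, at 343.1, 268.3 and 285.8 on chow, 680.6, 709.6 and 760.2 after 12 weeks and 544.2, 485.2 and 315.7 after 20 weeks in AIM-KO. In WT it read 301.7, 277.7 and 317 on chow, 560, 593.1 and 333.7 at 12 weeks and 641.3, 654.4 and 540.8 at 20 weeks. WT replicate 3 at 12 weeks and AIM-KO replicate 3 at 20 weeks stayed near chow. C1qa rose by 1.26 ± 0.2 (adjusted p = 0.00023) in AIM-KO at 12 weeks and by 1.02 ± 0.2 (adjusted p = 0.0017) in WT at 20 weeks, and changed by 0.55 ± 0.2 (adjusted p = 0.11) in AIM-KO at 20 weeks and 0.68 ± 0.2 (adjusted p = 0.051) in WT at 12 weeks.

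C1qc read 128, 128.4 and 171.7 on chow, 278.1, 284.7 and 283.8 after 12 weeks and 225, 180.8 and 174.5 after 20 weeks in AIM-KO. In WT it read 135.6, 170.3 and 146.6 on chow, 224.2, 235.1 and 135.9 at 12 weeks and 297.8, 265.3 and 288.2 at 20 weeks. The same replicate 3 of WT at 12 weeks was within the chow range. C1qc rose by 0.98 ± 0.18 (adjusted p = 0.00072) in AIM-KO at 12 weeks and by 0.9 ± 0.18 (adjusted p = 0.0019) in WT at 20 weeks, with 0.43 ± 0.18 (adjusted p = 0.16) in AIM-KO at 20 weeks and 0.35 ± 0.18 (adjusted p = 0.28) in WT at 12 weeks.

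Cfp encodes properdin, which stabilises the alternative C3 convertase. It read 146.2, 118.9 and 204.5 in AIM-KO at 12 weeks against 110.1, 90.6 and 95.5 on chow, so the groups did not overlap. It rose by 0.62 ± 0.2 (adjusted p = 0.039). The call held in 2 of 6 refits without 1 array, and its dimmer probe set changed by -0.18 ± 0.46 (adjusted p = 0.87). Fcna, ficolin A, which binds carbohydrates and starts the lectin pathway, did not follow the C1q genes. It read 314.4, 384.2 and 494.2 on chow, 259.5, 286 and 443.3 at 12 weeks and 412.8, 315.6 and 429.4 at 20 weeks in AIM-KO, and 415.5, 544.3 and 454.6 on chow, 323.8, 370.6 and 334.4 at 12 weeks and 211.6, 419.4 and 316.8 at 20 weeks in WT. The values overlapped in AIM-KO and ran lower in WT. Its change of -0.62 ± 0.23 in WT at 20 weeks (adjusted p = 0.077) became called without the Xist-high WT array (-0.85 ± 0.23, adjusted p = 0.016).

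C3ar1, the receptor of the anaphylatoxin C3a, read 16.5, 10.4 and 13.3 on chow, 44, 59.4 and 38.8 after 12 weeks and 24, 25 and 30.1 after 20 weeks in AIM-KO. WT livers had 21.4, 16 and 24.9 on chow, 41, 42.7 and 24 at 12 weeks and 54.1, 46.5 and 43.3 at 20 weeks. WT replicate 3 at 12 weeks was within the chow range and the other HFD arrays were above chow. C3ar1 rose by 1.6 ± 0.24 in AIM-KO at 12 weeks (fold 3.03, adjusted p = 0.00018), by 0.84 ± 0.24 at 20 weeks (adjusted p = 0.043, kept in 1 of 6 refits without 1 array) and by 1.1 ± 0.24 in WT at 20 weeks (adjusted p = 0.0046). In WT at 12 weeks it changed by 0.68 ± 0.24 (adjusted p = 0.11). The AIM-KO call at 20 weeks ended with the Xist term (0.89 ± 0.45, adjusted p = 0.38). Of the other probe sets of C3ar1, 1419482_at was called in AIM-KO at 12 weeks (1.03 ± 0.24, adjusted p = 0.0069) and WT at 20 weeks (1.15 ± 0.24, adjusted p = 0.0041) but not in AIM-KO at 20 weeks. Probe set 1419483_at was called in none, with 0.56 ± 0.28 in AIM-KO at 12 weeks (adjusted p = 0.23) and 0.83 ± 0.28 in WT at 20 weeks (adjusted p = 0.068). C5ar1, the receptor of C5a, lay between 3.1 and 19.1 on all arrays, near the pseudocount, and was not called.

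The summed intensity of macrophage markers outside the set was highest in the same groups as C1q and C3ar1. The sum over 12 markers was 3324.7 to 4238.2 on chow, 6575.8 to 7497.4 at 12 weeks and 3890.9 to 5434.3 at 20 weeks in AIM-KO. In WT it was 3623.3 to 3846.7 on chow, 4133.9 to 6564.1 at 12 weeks and 6315.6 to 7135.2 at 20 weeks. Of the 12, 8 in AIM-KO (11.4% of all genes) and 3 in WT (3.52%) were called higher at 12 weeks. At 20 weeks 0 in AIM-KO (4.29%) and 8 in WT (8.72%) were called higher. Among them Cd68, a lysosomal protein of macrophages, rose by 1.05 ± 0.17 in AIM-KO at 12 weeks (adjusted p = 4e-04), and Timd4, a receptor of resident Kupffer cells, changed by -1.01 ± 0.37 (adjusted p = 0.064). The scavenger receptors Marco and Cd163 were not called either. After 12 weeks in AIM-KO they changed by -0.73 ± 0.66 and -0.58 ± 0.7, and after 20 weeks in WT by -0.77 ± 0.66 and -1.49 ± 0.7. Of 7 tested markers of recruited macrophages, 6 and 1 were called higher in AIM-KO at 12 and 20 weeks, and 3 and 6 in WT. The shares of all genes called higher are those given for the 12 markers. Trem2 lay between -1.34 and -0.12, was not called and read 1.2 to 22.1 on all arrays, near the pseudocount of 3.3. No marker was at 0. At an unadjusted p under 0.05, 3 of the 12 macrophage markers differed in AIM-KO at 20 weeks by limma, against 20.3% of all genes. The 12 had a median change of 0.26 there, with 8 positive and 4 negative. C1qb and C3ar1 were called there, each in 1 of 6 refits without 1 array and not with the Xist term. The part of macrophage number in the C1q values was not tested.

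**Figure D5:**
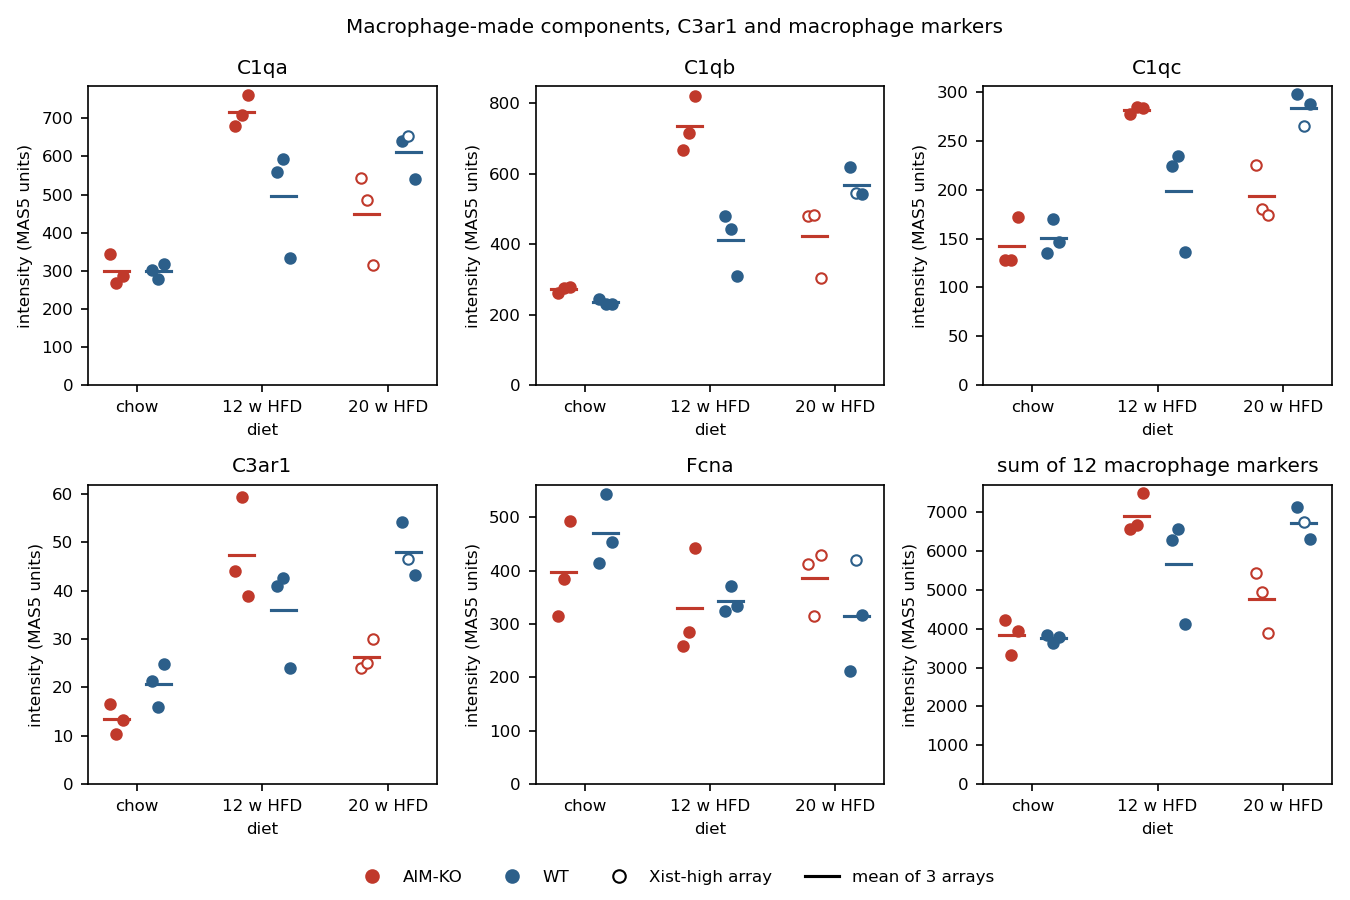
Intensity (MAS5 units) of C1qa, C1qb, C1qc, C3ar1 and Fcna and the summed intensity of 12 macrophage markers on each array, by diet from chow to 20 weeks, AIM-KO in red left of WT in blue. Open points are Xist-high arrays and bars are means of 3 arrays. The C1q genes, C3ar1 and the marker sum are highest at 12 weeks in AIM-KO and at 20 weeks in WT, and Fcna is not.

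Among the membrane regulators Cd59a was called in 3 of the 4 comparisons. Cd59a, which blocks the membrane attack complex on the cell's own surface, read 641.2, 674.6 and 646.9 on chow, 905.8, 891.8 and 860.8 at 12 weeks and 807.9, 766.7 and 718.2 at 20 weeks in AIM-KO. WT livers had 627.1, 612 and 620.4 on chow, 866.4, 889 and 958.1 at 12 weeks and 941.8, 777.5 and 955.4 at 20 weeks. All HFD arrays lay above all chow arrays, with a small spread. Cd59a rose by 0.44 ± 0.092 (adjusted p = 0.0026) in AIM-KO and 0.54 ± 0.092 (adjusted p = 0.0016) in WT at 12 weeks and by 0.52 ± 0.092 (adjusted p = 0.00086) in WT at 20 weeks, and changed by 0.22 ± 0.092 (adjusted p = 0.17) in AIM-KO at 20 weeks. Its dimmer probe set, 1429830_a_at, was called higher in WT at 12 weeks (0.76 ± 0.17, adjusted p = 0.014) and 20 weeks (0.74 ± 0.17, adjusted p = 0.0072). In AIM-KO that probe set overlapped chow, at 392.4, 464.1 and 473.5 at 12 weeks against 298.1, 359 and 507.1 on chow (0.22 ± 0.17, adjusted p = 0.45), and it was -0.28 ± 0.17 (adjusted p = 0.41) at 20 weeks.

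Cd55, decay-accelerating factor, which takes apart C3 convertases, was called in the 12-week average (0.43 ± 0.14, adjusted p = 0.031), where 6 of 12 refits without 1 array kept the call and neither other probe set was called (0.21 ± 0.13, adjusted p = 0.29, and 0.15 ± 0.18, adjusted p = 0.65). At 20 weeks it read 42.7, 55.6 and 40.6 in AIM-KO, against 70.2, 90 and 61.2 in WT on the same diet, with all AIM-KO arrays lower (-0.63 ± 0.19, adjusted p = 0.15). Against chow at 20 weeks it changed by -0.38 ± 0.19 in AIM-KO (adjusted p = 0.29) and 0.45 ± 0.19 in WT (adjusted p = 0.13). Cr1l, the rodent regulator Crry, was not called and lay between -0.12 and -0.0017, and Clu, clusterin, was not called and lay between -0.23 and -0.043. Cd46, which in mice is known mainly from sperm, read 17.9 to 40.4 on all arrays and was not called.

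AIM-KO and WT livers were then compared on the same diet. No member was called on chow (4 of 14694 genes, 0.0272%, with 0.0204% called lower), at 12 weeks (11 genes, 0.0749%), at 20 weeks (23 genes, 0.157%) or in the average of chow and 12 weeks (8 genes, 0.0544%, with 0.0204% called higher) by limma. At an unadjusted p under 0.05 there were 2, 7, 11 and 4 of 29 members, against 7.24%, 8.38%, 13.4% and 6.67% of all genes. At 12 weeks hepatocyte-made members had a median of -0.2 and macrophage-made members a median of 0.54, and at 20 weeks the medians were 0.16 and -0.45.

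C1qb had the smallest adjusted p at 12 weeks, with 667.3, 716.8 and 819.6 in AIM-KO against 479.3, 444.1 and 308.8 in WT (0.85 ± 0.17, adjusted p = 0.066). All AIM-KO arrays lay above the WT arrays, as they did for C1qa (0.57 ± 0.2, adjusted p = 0.37) and C1qc (0.54 ± 0.18, adjusted p = 0.32). C8b differed by -1.21 ± 0.31 (adjusted p = 0.18), with WT replicate 1 among the AIM-KO values. The summed macrophage markers read 6575.8 to 7497.4 in AIM-KO and 4133.9 to 6564.1 in WT, and the median of the male-biased genes was lower in AIM-KO by 2.12 on the log2 scale. Across the alternatives the adjusted p of C1qb lay between 0.014 (array weights) and 0.38 (another probe set).

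At 20 weeks the order of the C1q genes was the opposite, with C1qb at 480.4, 481.6 and 304.4 in AIM-KO against 618.3, 545.8 and 541.2 in WT (-0.45 ± 0.17, adjusted p = 0.23) and C1qc at -0.55 ± 0.18 (adjusted p = 0.16). C6 differed by -1.44 ± 0.45 (adjusted p = 0.16) and Cfb by 0.54 ± 0.16 (adjusted p = 0.13). Without the Xist-high WT array the comparison sets 3 Xist-high arrays against 2 others, and 5 members were called, against 6.45% of all genes. These were C1ra (0.39 ± 0.11, adjusted p = 0.035) and Cfb (0.79 ± 0.12, adjusted p = 0.00078) higher, and C6 (-2.15 ± 0.34, adjusted p = 0.0012), C9 (-0.79 ± 0.15, adjusted p = 0.0053) and Cd59a (-0.31 ± 0.088, adjusted p = 0.041) lower in AIM-KO. No member was called with the Xist term, against 0.0408% of all genes, so genotype and high Xist cannot be told apart for these genes at 20 weeks. Without WT replicate 2 the actin 3′ to 5′ ratio also separates the groups, at 2.35 to 2.61 in AIM-KO against 3.64 and 4.22 in WT, and cannot be told apart from genotype there either.

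The diet effect was not called as different between genotypes for any member at 12 weeks (0.00681% of all genes) or 20 weeks (0% of all genes), with 5 and 6 members at an unadjusted p under 0.05, against 9.44% and 10.2% of all genes. A further comparison, chosen after C1qb was seen to lie above WT at 12 weeks and below it at 20 weeks, took the AIM-KO minus WT difference at 20 weeks minus that at 12 weeks. It called 2 members, both lower, against 1.39% of all genes called in either direction and 1.04% called lower. It also called lower 5 of 12 macrophage markers, 3 of 7 recruited macrophage markers, Itgb2 (-1.46 ± 0.27, adjusted p = 0.014) and Colec11 (-0.82 ± 0.17, adjusted p = 0.026). The 2 members were C1qb (-1.31 ± 0.23, adjusted p = 0.014) and C1qc (-1.09 ± 0.25, adjusted p = 0.035), and C1qa had -1.05 ± 0.28 (adjusted p = 0.068). C8b ran the other way (1.73, adjusted p = 0.058). With the Xist term C1qb had -1.25 ± 0.29 (adjusted p = 0.18) and C1qc -1 ± 0.31 (adjusted p = 0.3), and neither was called.

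A further 26 complement genes outside the set were listed, of which 17 were tested. They are given without the Xist term, so for them 20 weeks of HFD and high Xist cannot be told apart in AIM-KO. Called higher and lower were 5 and 5 in AIM-KO at 12 weeks, 2 and 2 in AIM-KO at 20 weeks, 2 and 1 in WT at 12 weeks and 4 and 4 in WT at 20 weeks. Of all genes 11.4% and 6.78%, 4.29% and 2.67%, 3.52% and 1.63%, and 8.72% and 5.77% were called higher and lower in these comparisons. Susd4, known as a membrane inhibitor of complement, had the largest called fall among them in AIM-KO at both times and in WT at 20 weeks. It read 146.1, 194.2 and 229.6 on chow, 61.8, 38.8 and 38.2 at 12 weeks and 24.5, 9.6 and 34.9 at 20 weeks in AIM-KO (-1.97 ± 0.38, adjusted p = 0.0014, and -2.99 ± 0.38, adjusted p = 8.7e-05). WT arrays had 89.2, 127 and 138.4 on chow, 52.2, 85.6 and 75.2 at 12 weeks and 16.2, 15.7 and 48.1 at 20 weeks (-0.71 ± 0.38, adjusted p = 0.33, and -2.16 ± 0.38, adjusted p = 0.00082). Its HFD arrays lay below chow in each genotype. The factor H related gene Cfhr2 fell in all 4 comparisons, by 0.81, 0.51, 0.52 and 0.65 (each ± 0.14) in AIM-KO at 12 and 20 weeks and WT at 12 and 20 weeks, with adjusted p of 0.00051, 0.033, 0.033 and 0.0038.

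Colec11, a collectin that can start the lectin pathway, rose in all 4 comparisons. In AIM-KO at 20 weeks the Xist term left 1.34% of all genes called, against 6.96% without it, and the calls given here are without that term. It read 890.8, 695.3 and 746.8 on chow, 1410.8, 1549.2 and 1414.4 at 12 weeks and 1138.5, 1402.3 and 1440.4 at 20 weeks in AIM-KO, and 783.4, 774.4 and 734.3 on chow, 1187.2, 1249.8 and 938.3 at 12 weeks and 1798.6, 1650.6 and 1915.8 at 20 weeks in WT. No HFD array was as low as a chow array. Colec11 changed by 0.91, 0.77, 0.55 and 1.22 (each ± 0.12, adjusted p of 5.8e-05, 0.00064, 0.012 and 3.2e-06). Cd93, a receptor of endothelial and myeloid cells once described as a receptor for C1q, also rose in all 4, by 1.58, 0.75, 1.08 and 1.23 (each ± 0.19, adjusted p of 1.9e-05, 0.021, 0.0022 and 0.00027). Itgb2, the beta chain shared by complement receptors of leukocytes, rose by 1.54 ± 0.19 in AIM-KO at 12 weeks (adjusted p = 2.4e-05) and by 1.04 ± 0.19 in WT at 20 weeks (adjusted p = 0.0011), and Vsig4, the complement receptor of resident Kupffer cells, was not called in any of the 4.

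Several further genes were called in some of the 4 comparisons. The difference of the diet effect between genotypes was called for none of Cfhr3, Cpn2 and C1s1 by limma, with adjusted p of 0.59, 0.7 and 0.46 at 12 weeks and 0.52, 0.8 and 0.96 at 20 weeks. Cfhr3, another factor H related gene, fell by 0.92 ± 0.18 in AIM-KO at 12 weeks (adjusted p = 0.0019) and by 0.78 ± 0.18 in WT at 20 weeks (adjusted p = 0.008). Cpn2, a subunit of carboxypeptidase N, which inactivates anaphylatoxins, fell by 0.56 ± 0.13 (adjusted p = 0.0065) and 0.46 ± 0.13 (adjusted p = 0.025) in the same comparisons. C1s1, the partner protease of C1r and the genomic neighbour of C1ra, did not go with C1ra. It rose by 0.38 ± 0.11 in AIM-KO at 12 weeks (adjusted p = 0.017) and changed by -0.2 to 0.018 in the other 3 comparisons.

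Acute-phase genes, which hepatocytes induce in inflammation together with some complement genes, were called in both directions. Of 11, 4 were called higher and 2 lower in AIM-KO at 12 weeks, 2 and 0 in AIM-KO at 20 weeks, 4 and 1 in WT at 12 weeks and 4 and 2 in WT at 20 weeks. The shares of all genes called higher are 11.4%, 4.29%, 3.52% and 8.72%, and those called lower 6.78%, 2.67%, 1.63% and 5.77%. Saa2, a serum amyloid A, rose by 2.82 ± 0.42 in AIM-KO at 12 weeks (adjusted p = 0.00017) and by 3.29 ± 0.42 in WT at 20 weeks (adjusted p = 4.6e-05), while Fgb, a fibrinogen chain, fell by 0.61 ± 0.11 (adjusted p = 0.00066) and 0.41 ± 0.11 (adjusted p = 0.015). In these 2 comparisons the hepatocyte-made complement members called were all lower.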

How the data were processed

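The authors deposited 1 linear intensity per probe set and array, per the submitters' processing notes MAS5 values, whose version the sources used here do not give. RNA came from Trizol extracts and carried a biotin label, per the labels' protocols. Of 45101 probe sets, 34945 had 1 gene in the platform annotation, and symbols were updated by entrez id to RefSeq GRCm38.p6 (34741 matched). Those with more than 1 gene, or none, were left out. The table held 42 values equal to 0.

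Intensities were taken as log2(value + 3.3), 3.3 being the 20th percentile, so changes of dim genes are understated. Probe sets had to exceed the 40th percentile of 3 or more arrays, and the brightest represented each gene. Tests were limma 3.58.1 in R 4.3.3, 2-sided, on 6 group means of all 18 arrays with a variance trend (18.2 degrees of freedom), with Benjamini-Hochberg adjustment over 14694 genes in 11 planned comparisons and 1 added. The median SE of 3 against 3 arrays was 0.22, and the number of arrays limits the precision. The procedure was tested on simulated data. The main fits do not pair arrays by replicate number. Deviations from group means correlated at -0.087 to 0.23 for same-numbered arrays of different groups, over 0.1 in 5 of 45 pairs. For arrays of other numbers they correlated at -0.19 to 0.12. Whether same-numbered arrays share a batch was not tested.

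Every tested member is described. The members, lists, classes and motifs were chosen with earlier results of these data known, so no list was tested as such. Alternatives covered the pseudocount, normalization, dim filter, probe sets, variance trend, array weights, replicate block, groups in the fit, a term for the Xist-high arrays and leaving out arrays. Figures were drawn with matplotlib 3.10.9.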

Additional observations from a re-analysis of the deposited data

Results flagged for a closer look

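For C1qb the difference of the AIM-KO minus WT effect between 20 and 12 weeks of HFD was -1.31 ± 0.23 (adjusted p = 0.014), from -0.45 at 20 weeks and 0.85 at 12 weeks, and for C1qc it was -1.09 ± 0.25 (adjusted p = 0.035), from -0.55 and 0.54. Both were singled out because limma called the genotype effect as different between the times, in a comparison chosen after seeing C1qb. All 3 AIM-KO arrays at 20 weeks are Xist-high, and with a term for that neither was called. The call of C1qb held in 10 of 12 refits without 1 array and ended without AIM-KO replicate 2 at 12 weeks or WT replicate 1 at 20 weeks, and that of C1qc held in 4 of 12. The 12 macrophage markers had a median AIM-KO minus WT difference of -0.48 at 20 weeks and 0.29 at 12 weeks, and 5 of them were called lower in the same comparison, against 1.04% of all genes. Their part in the C1q values was not tested.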

How the results depend on the processing

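The 70 called results of members (a gene in a comparison) were recomputed. Over the settings other than leaving out an array 722 values kept direction and call, 86 kept only direction and 17 turned sign, and over refits without 1 array 439 kept the call, 107 lost it and 0 turned sign. All but 1 of the sign changes were Masp1. With probe set 1425985_s_at it changed by 0.15 (12-week average), 0.14 and 0.2 (AIM-KO at 12 and 20 weeks) and 0.16 and 0.49 (WT at 12 and 20 weeks), with 1438602_s_at by 0.2, 0.29, 0.36, 0.11 and 0.56, with 1438603_x_at by 0.23, 0.48 and 0.24 and by 0.18 in WT at 20 weeks, and with the mean of probe sets by 0.058 and 0.078 in AIM-KO and WT at 20 weeks. The other was Cfp in AIM-KO at 12 weeks, at -0.18 with probe set 1447537_at.

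The count of members called in AIM-KO at 12 weeks was 10 with quantile normalization (2425 genes in all) against 16 (2666). In AIM-KO at 20 weeks it was 6 with only the groups compared (678 genes) and 2 with the Xist term (197), against 10 (1022). In WT at 12 weeks it was 11 with array weights (1317 genes) and 11 without the 4 Xist-high arrays (783 genes, added after seeing the data), against 7 (756). At 12 weeks the genotype comparison gave 1 (C1qb), against 0, with a pseudocount of 13.2 (19 genes against 11). It also gave 1 (C1qb) with array weights, with the replicate block and without the Xist-high arrays, whose counts over all genes are not given here. At 20 weeks it gave 3 with array weights (720 genes against 23), against 0. For the added difference the count of members was 0 without a variance trend (38 genes), 6 with array weights (806), 4 with the replicate block (260), 1 with only the groups compared (151) and 0 with the Xist term (15), against 2 (204). The replicate block gave 15 and 10 members called in AIM-KO at 12 and 20 weeks, against 16 and 10. In WT it gave 8 and 18, against 7 and 16. Its counts over all genes in these 4 comparisons are not given here.

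Leaving out each array gave 11 to 14 members called in AIM-KO at 12 weeks, 6 to 9 in AIM-KO at 20 weeks, 5 to 9 in WT at 12 weeks, 13 to 18 in WT at 20 weeks and 13 to 19 in the 12-week average. For AIM-KO against WT it gave 0 to 0 on chow, 0 to 2 at 12 weeks, 0 to 5 at 20 weeks and 0 to 1 in the average, for the difference of the diet effect 0 to 1 at 12 weeks and 0 to 3 at 20 weeks, and for the added difference 0 to 4. The 5 at 20 weeks came without WT replicate 2, where 6.45% of all genes were called against 0.157% in the main fit. Shares of all genes are not given here for the other refits, so their ranges do not single out the members. The cause of these moves was not tested. C5ar1 and Cd46 were dim, which limits what their values can show.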
